A study of Sus scrofa with 4 samples.

Results

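The genes described here are the transcription factors that build and maintain skeletal muscle, together with myostatin, the secreted brake on muscle growth. They are the myogenic regulatory factors MYOD1, MYF5, MYF6 and MYOG, the satellite cell factor PAX7, the factors MEF2A, MEF2C and MEF2D, and MSTN, which encodes myostatin. Members were found by their name in the expression table or by the symbol of their Ensembl gene identifier, and the entry with the highest mean was kept where a symbol had several. Of the 9 genes sought, 8 were found among 18208 entries. PAX7 matched no row by name or identifier and was not analysed here.

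RNA of the longissimus dorsi, the long muscle of the back, was sequenced from 4 pig breeds, with 1 library per breed. The Diannan Small Ear pig (DSP) and the Tibetan pig (TP) are indigenous Chinese breeds, and Landrace (LL) and Yorkshire (YY) are introduced breeds, so each type had 2 libraries. The labels state no treatment, genotype, age, sex or number of animals per library. With 1 library per breed, differences of breed, animal and library within a type cannot be told apart. The p-values rest on that mixed spread, moderated by the spread over all genes tested. The study asked which genes bear on growth and on lipid laid down in muscle, per its title.

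The myogenic regulatory factors are basic helix-loop-helix proteins that bind DNA in pairs with E proteins and switch on muscle genes. MYF5 and MYOD1 are known for committing cells to the muscle lineage, MYOG for driving differentiation, and MYF6, also called MRF4, as the member kept at the highest level in adult fibres. MEF2 factors are MADS-box proteins that act with them on muscle promoters and respond to calcium signalling and to nerve activity. Myostatin is made by muscle fibres and acts through activin receptors and Smad proteins to limit muscle mass, and its loss gives the double-muscled phenotype of some cattle breeds.

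Values are FPKM, fragments scaled by transcript length and by the size of the library, so levels of different genes can be set side by side per length. No read counts or depths were given, so counting error could not be computed. The FPKM of all entries summed to between 880279 and 1450760 per library, and loci under 300 bp outside the mitochondrial genome took 17.7% to 20.6% of it in the DSP and LL libraries, against 1.39% to 5.55% in those of TP and YY. Of the 4 pairs of libraries set side by side, DSP and LL were nearest to each other, with 7.29% of 11652 genes at least 2-fold apart, against 23.2% between DSP and TP, 29.5% between LL and YY and 16.7% between TP and YY. DSP and LL belong to different types, and the reason for their likeness was not tested. Of 12 fibre markers, 8 had an entry, and these were abundant in each library, with the skeletal actin gene ACTA1 at 16778 to 50812 FPKM, as the labelled tissue would have.

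MYF6 was the most abundant of the 8 genes in each of the 4 libraries and MYF5 the least. MYF6 had 155 and 221 FPKM in DSP and TP and 190 and 308 in LL and YY. MYF5 had 0.360 and 1.11 FPKM in DSP and TP and 1.04 and 0.679 in LL and YY, under 1 on average and thus outside the tests. The genes are neighbours on chromosome 5 (MYF5 from 105701191 to 105703369, MYF6 from 105710666 to 105712524 in the deposited coordinates, whose genome build is not given in the sources used here), with 7296 bp and 0 other entries between them. MYF6 exceeded MYF5 by 182-fold in LL, 200-fold in TP, 431-fold in DSP and 454-fold in YY. In bulk tissue, fewer cells of a type and less RNA per cell cannot be told apart, which bears on MYF5 in particular, since it is expressed in satellite cells, the muscle stem cells.

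Between these extremes lay the other genes, in an order that was mostly shared by the libraries. MEF2C ranged from 78.8 to 137 FPKM, MEF2A from 43.3 to 95.6, MEF2D from 34.8 to 45.2 and MYOG from 24.0 to 40.0, so that neighbours in this order overlapped across libraries. MYOD1 ranged from 8.58 to 20.0 FPKM and MSTN from 5.45 to 17.8, also overlapping. Within a library, MYF6, MEF2D and MYOG stood at ranks 1, 4 and 5 in each of the 4 libraries. The places that changed were those of MEF2A and MEF2C, since MEF2A was above MEF2C in YY alone, and of MSTN and MYOD1, since MSTN was above MYOD1 in DSP and LL and below it in TP and YY. Against all genes tested, MYF6 ranked 415 and MSTN 4719 of 11652 by mean level.

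**Figure D1:**
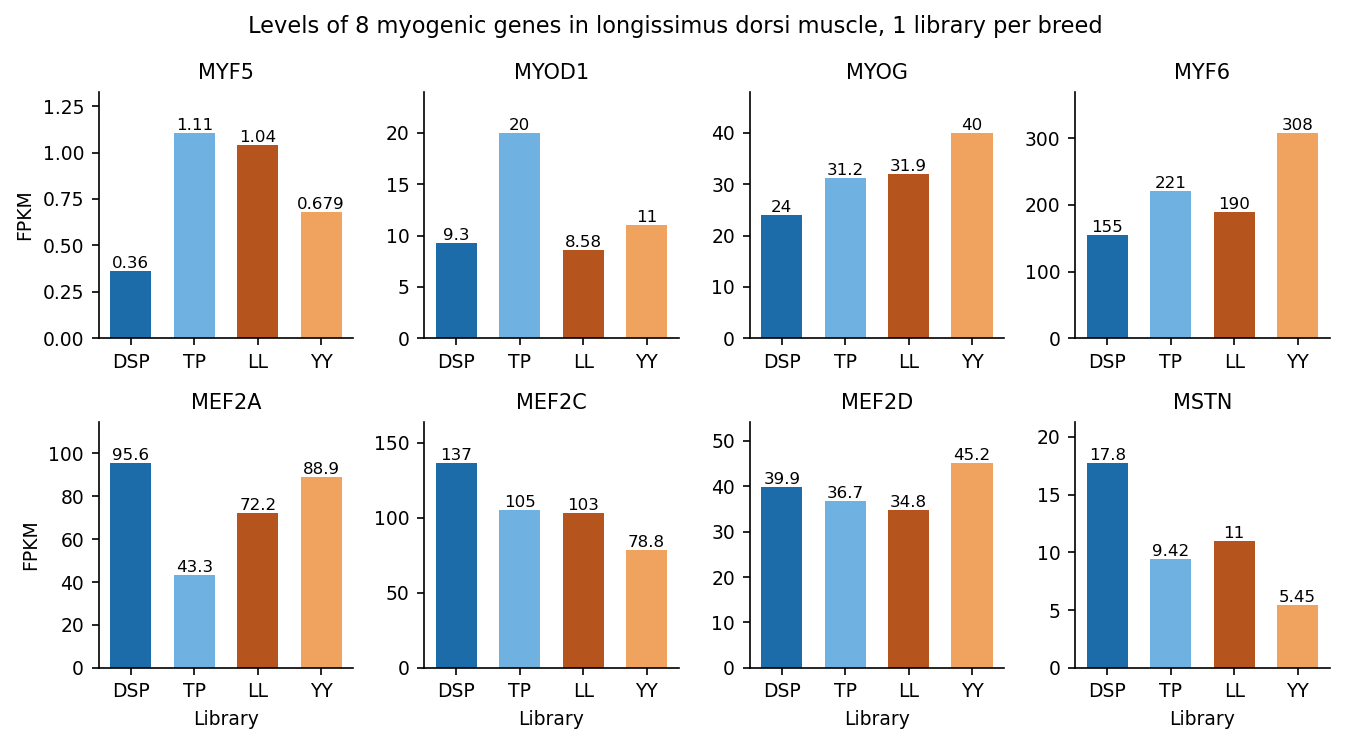
FPKM (vertical axes, each starting at 0) of the 8 genes in the libraries of Diannan Small Ear (DSP), Tibetan (TP), Landrace (LL) and Yorkshire (YY) pigs; each bar is 1 library, with its value above it. MYF6 reaches 308 FPKM in YY while MYF5 stays at or below 1.11, and MSTN falls in the order DSP, LL, TP, YY.

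Within each library, MYF6 made up most of the summed FPKM of the 4 myogenic regulatory factors. Its share was 82.2% and 80.8% in DSP and TP and 82.0% and 85.6% in LL and YY. Shares and ratios within a library do not depend on how libraries are scaled to each other. MYOG, the differentiation factor, held 11.1% to 13.8%, with the highest share in LL and the lowest in YY. MYOD1, the commitment factor, held 4.92% and 7.32% in DSP and TP and 3.71% and 3.07% in LL and YY, so that its share was higher in both indigenous libraries than in either introduced one. The ratio of MYOG to MYOD1 was 2.58 in DSP and 1.56 in TP against 3.72 in LL and 3.62 in YY, and that of MYF6 to MYOD1 was 16.7 and 11.0 against 22.1 and 27.9. The types did not overlap in these ratios. They also did not in that of MEF2C to MEF2A, but only by 1.42998 in DSP against 1.42782 in LL, which makes 3 of the 11 ratios computed between members or with FST. The ratios to MYOD1 share their denominator and are not separate observations. An exact permutation test of 2 libraries against 2 cannot give a two-sided p under 0.333, so no ratio could pass. That value is also the share of random orderings of the libraries in which the types do not overlap.

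The MEF2 family was more even, and its makeup differed more between libraries. MEF2C, a factor of muscle and heart development, held 50.2% and 56.8% of the summed FPKM of MEF2A, MEF2C and MEF2D in DSP and TP and 49.1% and 37.0% in LL and YY. MEF2A, a family member of adult fibres and heart, held 35.1%, 23.4%, 34.4% and 41.8% in the same order. MEF2D held 14.7% to 21.2%. DSP and LL had nearly the same ratio of MEF2C to MEF2A, at 1.43 in each, whereas TP had 2.43 and YY 0.886.

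**Figure D2:**
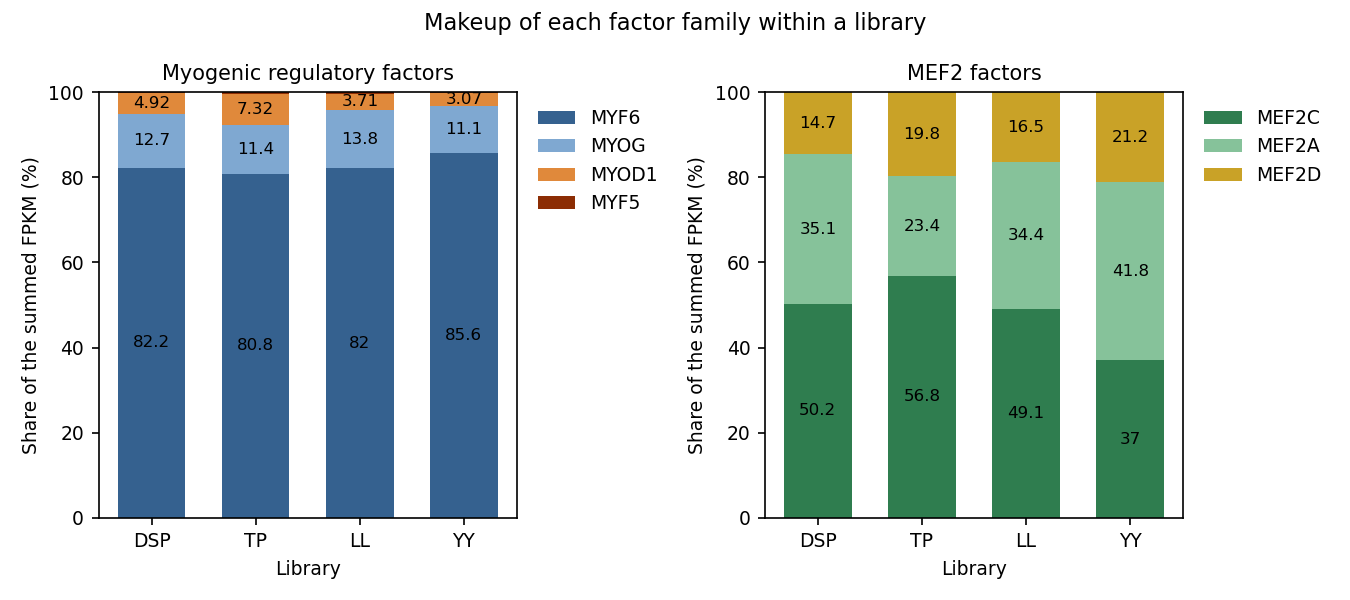
Share (%) of each factor in the summed FPKM of its family in each library; the left panel stacks MYF6, MYOG, MYOD1 and MYF5, and the right panel MEF2C, MEF2A and MEF2D. MYF6 takes 80.8% to 85.6% in the left panel, while MEF2C runs from 37.0% in YY to 56.8% in TP in the right panel.

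Myostatin had the widest range of the 7 tested genes. MSTN, read from chromosome 15 (105734306 to 105739335), had 17.8 and 9.42 FPKM in DSP and TP and 11.0 and 5.45 in LL and YY. The order from DSP through LL and TP to YY places LL between the indigenous breeds, so the types overlapped. DSP and LL were both above TP and YY as deposited in 31.8% of all genes tested. DSP exceeded YY by 3.26-fold as deposited, by 3.03-fold after rescaling the libraries to a common median ratio, and by 3.44-fold after rescaling to a common sum over loci of at least 300 bp that are not mitochondrial, and the order of the libraries was the same in all 3 scalings. Its range was 1.54 on the log2(FPKM + 1) scale, and 23.8% of all genes tested had a range at least as wide. Per length, the ratio of MSTN to MYF6 was 0.115 and 0.0427 in DSP and TP and 0.0581 and 0.0177 in LL and YY. The ratio of MSTN to MYOG was also lowest in YY, at 0.136 against 0.302 in TP. That of MSTN to MYOD1 was instead lowest in TP, at 0.471 against 0.493 in YY.

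MYOD1 was highest in TP. Its entry on chromosome 2 (44482282 to 44485063) had 9.30 and 20.0 FPKM in DSP and TP and 8.58 and 11.0 in LL and YY. TP was the highest library in all 3 scalings, at 2.33-fold over the lowest library as deposited, 2.58-fold at a common median ratio and 3.00-fold at a common sum. TP was highest for 16.2% of all genes tested as deposited, 22.2% at a common median ratio and 29.7% at a common sum. The range of MYOD1 was 1.13 on the log2(FPKM + 1) scale, and 43.6% of all genes tested had a range at least as wide. The summed markers of several other cell types were also highest in TP. They reached 22.8 FPKM against 2.52 to 3.53 in the other libraries for 3 of 4 adipocyte markers found, where LEP was listed at 0 outside TP, and 194 against 48.4 to 94.8 for 4 of 4 smooth muscle markers, of which MYH11 was highest in LL. For 4 of 6 macrophage and leukocyte markers the sum was 22.5 against 7.105 to 8.96, of which C1QA gave 15.1 in TP, while CD68 was lowest there. The sum for 4 of 6 satellite cell markers was instead highest in YY, at 14.7 FPKM against 9.28 in TP. Most of it came from CDH15, at 13.5 in YY and 6.67 in TP. The sum of the fibre markers was also highest in YY, at 91106 against 74997 in TP. The part of these cell types in the MYOD1 value was not tested.

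MYOG and MYF6, the factors of differentiating and mature fibres, had their lowest values in DSP, the lowest library for 12.3% of all genes tested (18.3% at a common median ratio and 27.5% at a common sum). MYOG (chromosome 9, 125243802 to 125245882) had 24.0 and 31.2 FPKM in DSP and TP and 31.9 and 40.0 in LL and YY. Both introduced libraries were above both indigenous ones, but at a common median ratio or a common sum the types overlapped. DSP was lowest for both genes in all 3 scalings, whereas the highest library for MYF6 was YY as deposited and at a common median ratio and TP, at 263 against 250 in YY, at a common sum.

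MEF2A was lowest in TP in both of its entries as deposited, while the entries differed in the place of YY. The entry on chromosome 1 (154648092 to 154692276) had 95.6 and 43.3 FPKM in DSP and TP and 72.2 and 88.9 in LL and YY, and TP was the lowest library in all 3 scalings. A second entry on the unplaced scaffold GL894544.2 (5800 to 77067), with the same gene name and NCBI gene number, had 13.8 and 2.91 FPKM in DSP and TP and 11.6 and 3.82 in LL and YY. There DSP and LL were both above TP and YY, a pattern held by 31.8% of all genes tested. The ratio of the entries was 6.92 and 14.9 in DSP and TP and 6.24 and 23.3 in LL and YY, so the level of MEF2A in YY relative to DSP depends on which entry is read. Reads from a gene split over 2 entries cannot be assigned to a single transcript from these values.

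MEF2C and MEF2D varied less. MEF2C (chromosome 2, 98794387 to 98885272) had 137 and 105 FPKM in DSP and TP and 103 and 78.8 in LL and YY. Both indigenous libraries were above both introduced ones as deposited and at a common median ratio, but the types overlapped at a common sum, with TP at 126, LL at 125, DSP at 117 and YY at 63.8. YY was lowest in all 3 scalings. MEF2D (chromosome 4, 102218093 to 102236181) had 39.9 and 36.7 FPKM in DSP and TP and 34.8 and 45.2 in LL and YY, the narrowest range among the members, and 94.4% of all genes tested had a range at least as wide.

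**Figure D3:**
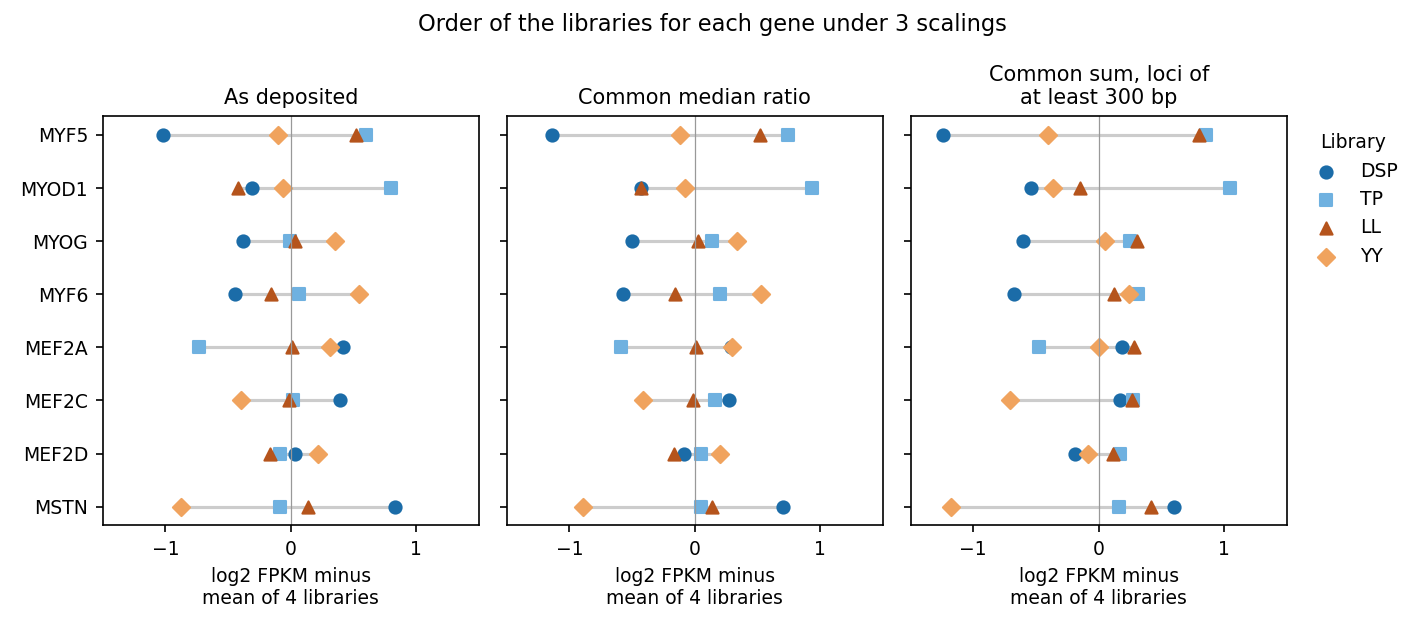
log2 FPKM of each gene minus its mean over the 4 libraries (horizontal axes), as deposited, at a common median ratio and at a common sum over loci of at least 300 bp outside the mitochondrial genome; each symbol is 1 library. In all 3 panels MSTN keeps the order DSP, LL, TP, YY and MYF5 the order TP, LL, YY, DSP. TP stays highest for MYOD1 and lowest for MEF2A, while the other libraries change order for these genes. MYOG, MYF6, MEF2C and MEF2D also change order.

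The comparison of indigenous with introduced pigs passed none of the members. With limma on log2(FPKM + 1), 0 of the 7 tested members had an adjusted p under 0.05, where 0% of 11652 genes did, and 0 had an unadjusted p under 0.05, where 1.12% of genes did. MSTN had the largest difference, at 13.6 ± 5.91 FPKM (SD, n = 2) in the indigenous against 8.23 ± 3.94 in the introduced type, or 0.67 on the log2 scale (SE 0.58, 95% interval −0.70 to 2.04, limma adjusted p = 1.0). Without YY that difference was 0.22, without LL 1.12, without DSP 0.24 and without TP 1.09. For MYOD1 the means were 14.6 ± 7.56 and 9.82 ± 1.74 FPKM (difference 0.45, SE 0.56), and without TP the difference turned to −0.06. For MEF2C they were 121 ± 22.2 and 90.9 ± 17.2 FPKM (difference 0.41, SE 0.68), with 0.22 without YY or without DSP.

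The remaining members were lower on average in the indigenous type. MYF6 averaged 188 ± 46.3 FPKM against 249 ± 83.6 (difference −0.38, SE 0.77), which became −0.036 without YY, −0.13 without DSP, −0.64 without TP and −0.73 without LL. MYOG averaged 27.6 ± 5.07 against 35.9 ± 5.68 (difference −0.37, SE 0.57), with −0.19 without DSP and −0.21 without YY. MEF2A averaged 69.5 ± 37.0 against 80.5 ± 11.8 FPKM (difference −0.31, SE 0.71), which turned to 0.25 without TP. MEF2D averaged 38.3 ± 2.29 against 40.0 ± 7.41 FPKM (difference −0.05, SE 0.59). The 95% intervals of all 7 differences held 0 and were wide, reaching from −2.23 to 1.46 for MYF6, so that a 2-fold difference in either direction lay inside the intervals of MYF6, MEF2A, MEF2C and MEF2D. The median difference of the 7 members was −0.05, against −0.02 over all genes tested.

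Only MYOG and MEF2C had types that did not overlap, 2 of 7, where 18.6% of genes tested did so. Within the pairs of like libraries, DSP with LL and TP with YY, differences were of 1 sign for 5 of the 7 members, where 39.7% of all genes tested were so; the pairs were chosen with their likeness known. Those of MSTN were 0.64 and 0.69, those of MEF2C 0.40 and 0.41, those of MYOG −0.40 and −0.35, those of MYF6 −0.29 and −0.48, and those of MYOD1 0.10 and 0.80. MEF2A had 0.40 and −1.02, and MEF2D 0.20 and −0.29. These values depend on the scaling: at a common sum they became 0.17 and 1.18 for MSTN, −0.10 and 0.96 for MEF2C, −0.88 and 0.19 for MYOG, −0.79 and 0.08 for MYF6, and −0.35 and 1.32 for MYOD1, so that MSTN alone of these 5 was of 1 sign. With MEF2A, at −0.10 and −0.47, 2 of 7 members were then of 1 sign, where 39.0% of all genes were. The authors' deposited table gave MYF6 a ratio of 0.755 with p = 0.00217 and a false discovery rate of 0.0635, and MEF2C a ratio of 1.33 with p = 0.0469 and a false discovery rate of 0.816. In that table the other 6 members had a false discovery rate of 1, where 3.32% of all entries were under 0.05.

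**Figure D4:**
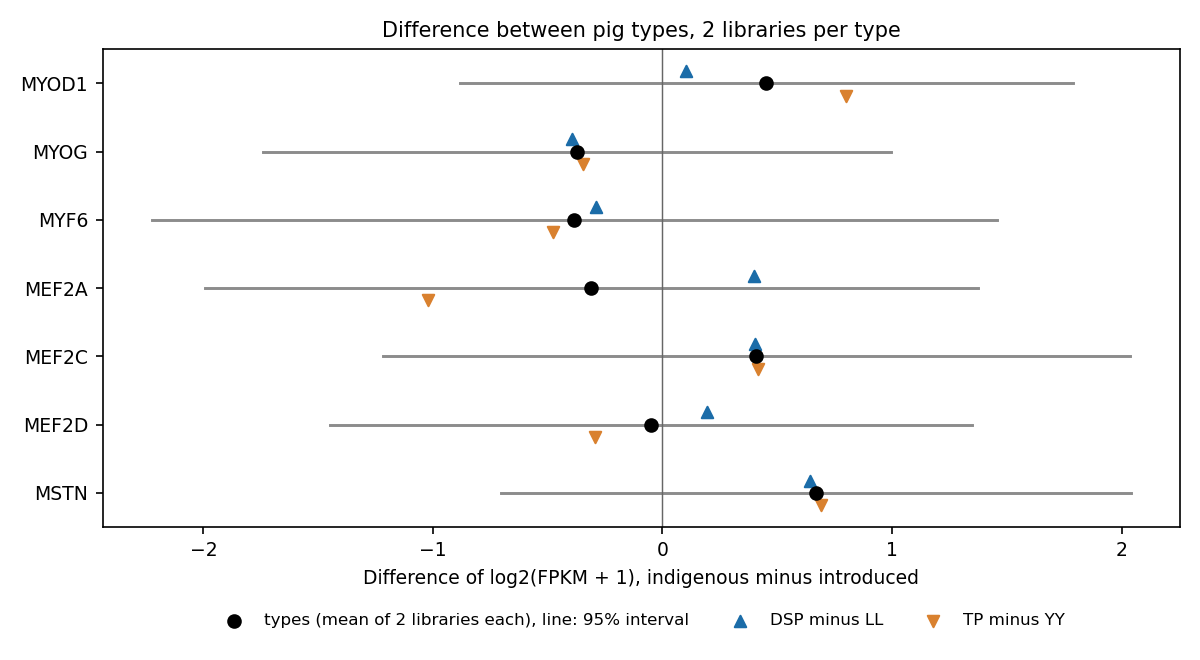
Difference of log2(FPKM + 1), indigenous minus introduced, for the 7 tested genes; black points are the difference of type means with its 95% interval from limma (n = 2 libraries per type), and triangles are the differences within DSP and LL and within TP and YY. All intervals cross 0. Each black point is by construction the mean of its 2 triangles. In the deposited scaling the triangles lie close together for MSTN, MEF2C and MYOG but apart for MEF2A and MYOD1.

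Breeds of the same type were set side by side without a test, as each had a single library. Between DSP and TP, 2 of 7 members were at least 2-fold apart on the log2(FPKM + 1) scale, where 23.2% of genes were: MEF2A was higher in DSP by 1.12, as 15.6% of genes were by 2-fold or more, and MYOD1 higher in TP (−1.03 in DSP minus TP), as 7.59% were. At a common median ratio the difference of MEF2A was 0.87 and at a common sum 0.65, both under 2-fold, while that of MYOD1 was −1.27 and −1.47. In these scalings 21.6% and 23.0% of genes were at least 2-fold apart. The median of all genes in DSP minus TP was 0.21, and it became 0.00 at a common median ratio and −0.19 at a common sum. Between LL and YY, 0 of 7 members were 2-fold apart, where 29.5% of genes were, and MSTN was nearest, with a difference of 0.90. It passed 2-fold at a common sum (1.41), where 34.9% of genes did. With a pseudocount of 0.1 it also passed (1.002), where 38.0% did. The median of all genes in LL minus YY was 0.01 as deposited and 0.49 at a common sum. MEF2A was also the 1 member at least 2-fold apart between TP and YY, where 16.7% of genes were and 8.97% were higher in YY, and 0 members were so between DSP and LL, where 7.29% were. That difference of MEF2A, −1.02, fell under 2-fold at a common median ratio (−0.87) and at a common sum (−0.47). At a common sum MYOD1 (1.32) and MSTN (1.18) were instead 2-fold higher in TP. In that scaling 18.2% of genes were 2-fold apart between TP and YY, and 85.1% of these were higher in TP. As deposited, the medians of all genes were −0.20 in TP minus YY (0.25 at a common sum) and 0.13 in DSP minus LL (−0.29).

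Genes around the factors were taken from 9 lists of partners, regulators and targets. Of 133 listed genes with an entry, 107 were tested and 0 passed, and 1 (0.935%) had an unadjusted p under 0.05, with indigenous lower as in 0.566% of all genes. That gene was HDAC9, a histone deacetylase that represses MEF2 factors, at 4.68 and 3.09 FPKM in DSP and TP and 17.0 and 8.86 in LL and YY (difference −1.47, SE 0.52, limma adjusted p = 1.0). HDAC9 had 2 entries, and these values are of the entry with the higher mean. The types did not overlap with indigenous higher in 11 and lower in 10 of the 107, where 9.47% and 9.17% of all genes did so.

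Among satellite cell and muscle stem cell genes, 10 of 16 tested were above 0 (median 0.19) and 0 passed. NCAM1, a cell adhesion molecule, had 29.8 and 4.52 FPKM in DSP and TP and 26.5 and 16.8 in LL and YY, and was thus lowest in TP. SDC4, a syndecan of satellite cells, had 14.0 and 12.1 FPKM in DSP and TP against 23.6 and 18.4 in LL and YY. HEY1, a target of Notch signalling, had 3.60 FPKM in TP and 0.790 to 0.903 elsewhere, and the receptor NOTCH2 had 0.688 in YY and 2.84 to 5.07 elsewhere. PAX3, the paralogue of PAX7, was at or below 0.0739 FPKM in each library.

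The partners and inhibitors of the myogenic regulatory factors had a median difference of 0.44, with 7 of 12 tested above 0 and 0 passing. The ID proteins lack a DNA-binding region and hold E proteins away from the factors. ID1 had 7.47 and 39.8 FPKM in DSP and TP and 6.06 and 6.85 in LL and YY, and ID2, ID3 and ID4 also had their highest value in TP, the library with the most MYOD1, in all 3 scalings. ID2 had 7.12 FPKM in TP against 1.68 to 2.87 elsewhere, ID3 3.84 against 0.511 to 1.08, and ID4 2.48 against 0.773 to 0.976. These 3 were named after their values were seen, and TP was highest for 16.2% of all genes tested (22.2% at a common median ratio and 29.7% at a common sum). These genes are also expressed in vessels and other stromal cells, and 4 endothelial markers summed to 91.7 FPKM in TP against 31.2 to 69.6 elsewhere, whose part in the ID values was not tested. TCF4, an E protein, had 1.72 FPKM in YY against 7.36 to 9.02 elsewhere. The repressors BHLHE40 and ZEB1 were the most abundant of the list, BHLHE40 at 67.3 to 110 FPKM with its highest value in YY, and ZEB1 at 50.2 and 14.3 FPKM in DSP and TP and 39.3 and 23.2 in LL and YY.

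The upstream regulators, which act on the promoters of the myogenic factors or pattern muscle groups, had the lowest median of the 9 lists, at −0.49, with 2 of 10 tested above 0 and 0 passing. In 4 of the 10 the types did not overlap, with indigenous lower, where 9.17% of all genes did so, among them SIX2 at 10.8 and 8.64 FPKM in DSP and TP against 20.3 and 23.3 in LL and YY. SIX2 is a homeobox factor of the sine oculis family, and its difference was −1.09 (SE 0.51, limma adjusted p = 1.0). TP was below both DSP and YY in 10 of 10, where 42.7% of all genes were so, and in 5 of 10 at a common sum, where 15.8% were. This count leaves out LL, was not among the planned comparisons and was made for this list alone, so it only describes the list. TP was the lowest of all 4 in 7 of 10, where 35% of all genes had TP lowest, and in 3 of 10 at a common sum, where 15.4% did. Without TP the list's median was 0.05. NFIX, a factor of fetal myogenesis, was the most abundant at 228 FPKM in DSP and 96.4 to 128 elsewhere, and TBX15, a T-box factor of fast fibres in mice, had 195 and 45.4 FPKM in DSP and TP and 144 and 125 in LL and YY. EYA1, a transcriptional coactivator read from an entry of 631 bp, had 255 and 2.47 FPKM in DSP and TP and 174 and 10.8 in LL and YY, and the part of the gene that this short entry covers was not examined. PITX3, a homeobox factor, had 9.70 and 4.10 FPKM in DSP and TP and 3.49 and 18.1 in LL and YY.

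Regulators and cofactors of MEF2 had a median of 0.15, with 13 of 20 above 0, and 12 of 20 were highest in DSP, where 30% of all genes were (22.1% at a common median ratio and 10.7% at a common sum, with 12 and 8 of the list). SMYD1, a muscle methyltransferase needed for sarcomere assembly, had 406 and 124 FPKM in DSP and TP and 142 and 70.2 in LL and YY, a range of 2.52 on the log2 scale. The calcineurin subunit PPP3CA, which relays calcium signals to MEF2 and NFAT proteins, had 98.6 and 36.5 FPKM in DSP and TP and 44.2 and 21.4 in LL and YY. As deposited, DSP was highest and YY lowest, as for MSTN and MEF2C, but MEF2C was highest in TP at a common sum. YY was the lowest library for 26.1% of all genes tested. PPP3CB, the other catalytic subunit listed, had 109 to 206 FPKM and was highest in YY.

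Targets of the factors had a median of 0.18, with 11 of 19 above 0 and 0 passing, and LL was lowest in 10 of 19 where it was lowest in 26.6% of all genes (8 of 19 at a common sum, where 12.1% were). ACTA1 had 39517 and 47397 FPKM in DSP and TP and 16778 and 50812 in LL and YY, and the fast myosin light chain genes MYLPF and MYL1 were also lowest in LL. MYL1 had 7079 and 19249 FPKM in DSP and TP and 2635 and 19892 in LL and YY. This order was not that of MYF6 or MYOG, which were lowest in DSP. KLHL40, a stabiliser of thin filament proteins, had 67.8 FPKM in TP and 299 to 373 elsewhere. MUSK, the receptor that organises the neuromuscular junction, had 6.31 FPKM in DSP and 0.994 to 1.99 elsewhere, and RAPSN, which clusters acetylcholine receptors, had 39.0 in YY, 5.19 in LL, 15.1 in DSP and 14.0 in TP.

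**Figure D5:**
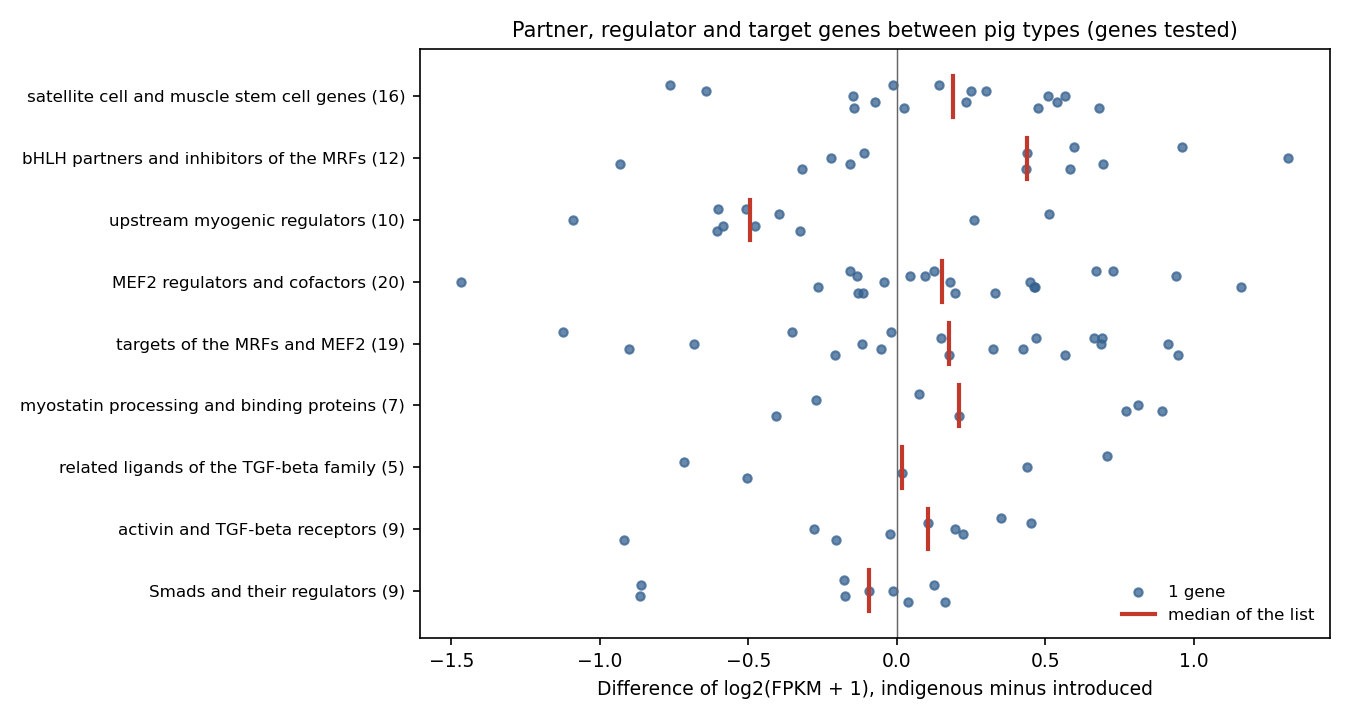
Difference of log2(FPKM + 1), indigenous minus introduced, for each tested gene of the 9 lists (points; vertical scatter within a list has no meaning), with the number tested in brackets and the median of each list as a bar. Medians run from −0.49 for upstream regulators to 0.44 for partners and inhibitors, and 0 genes passed.

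On the myostatin side, 7 processing and binding proteins were tested, with a median of 0.21, 5 above 0 and 0 passing. FST, which encodes follistatin, the extracellular inhibitor of myostatin and activins, had 1.4 and 5.06 FPKM in DSP and TP and 1.77 and 0.697 in LL and YY. The ratio of MSTN to FST was therefore 12.7 and 1.86 in DSP and TP and 6.22 and 7.82 in LL and YY, lowest in TP. WFIKKN2, which encodes another secreted inhibitor of myostatin, had 6.78 and 6.69 FPKM in DSP and TP against 1.71 and 5.40 in LL and YY (difference 0.89, SE 0.54, limma adjusted p = 1.0). The abundant members were DCN, a matrix proteoglycan that binds myostatin, at 205 FPKM in TP and 63.4 to 97.6 elsewhere, and TCAP, a Z-disc protein that binds it in the fibre, at 4068 FPKM in YY, 1532 in TP, 924 in DSP and 611 in LL. Markers of fibroblasts and matrix summed to 612 and 687 FPKM in DSP and TP and 445 and 68.0 in LL and YY, and their part in the values of DCN was not tested.

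Related ligands were mostly low. GDF11, the closest paralogue of MSTN, had 0.994 to 1.05 FPKM in the 4 libraries, below MSTN in each, and a range of 0.04 on the log2 scale. TGFB2 was the exception, with 22.4 and 50.4 FPKM in DSP and TP and 20.7 and 148 in LL and YY. It was highest in YY, where MSTN was lowest, and YY was the highest library for 32.8% of all genes tested. TGFB1 and TGFB3 had their highest values in TP, at 7.15 and 3.14 FPKM. The 5 tested ligands had a median of 0.02, with 3 above 0 and 0 passing.

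The receptors had a median of 0.11, with 5 of 9 above 0 and 0 passing, and YY was lowest in 6 of 9 where it was lowest in 26.1% of all genes (8 of 9 at a common sum, where 44.9% were). ACVR2B, the main type II receptor for myostatin, had 11.1 and 3.29 FPKM in DSP and TP and 10 and 3.06 in LL and YY. It was thus higher in DSP and LL, as was MSTN, a pattern held by 31.8% of all genes tested. ACVR2B, like GDF11 and PAX3 above, was named for its known role after its values were seen. ACVR1, a type I receptor of the BMP branch, had 24.2 FPKM in LL and 5.43 to 11.7 elsewhere, and the co-receptor TGFBR3 had 1.54 in YY and 4.70 to 8.77 elsewhere. The BMP receptors BMPR1A and BMPR2 were the most abundant that the list's rule named, at 13.1 to 29.4 and 18.2 to 29.2 FPKM.

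Among the Smads and their regulators the median was −0.09, with 3 of 9 above 0 and 0 passing. SMAD4, the shared partner of the pathway, had 33.9 to 51.4 FPKM. SMAD1, which transmits BMP signals, had 18.1 and 11.4 FPKM in DSP and TP and 21.7 and 33.4 in LL and YY, and TGIF1, a repressor that binds Smads, had 6.0 and 6.14 in DSP and TP against 10.9 and 12.9 in LL and YY. Indigenous libraries were lower without overlap in both genes. For SMAD1 the difference was −0.87 (SE 0.57) and for TGIF1 −0.86 (SE 0.46), each with a limma adjusted p of 1.0.

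The genes whose pattern over the 4 libraries was most like that of a member were sought for the 3 members with a range of at least 1, among 5949 named genes averaging 5 FPKM or more. Likeness was the root mean square distance between log2(FPKM + 1) values centred on each gene's mean. MYOD1 was nearest to PTTG1IP (0.0255) and GNAI2 (0.0593), and 0.605% of the genes lay within 0.2. MEF2A was nearest to KAT8 (0.0183), with 5.43% within 0.2, so its pattern was a common one. MSTN was nearest to the mitochondrial gene ND4L (0.0676) and to KANK1 (0.0830), with 1.04% within 0.2. With 4 values per gene, such likeness describes these libraries alone.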

How the data were processed

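The authors deposited FPKM per breed, and the submitters' processing notes name TopHat; its version, the genome build, annotation and quantifier were not stated in the labels or headers. Per the file headers, the deposited ratio (fold change) divides indigenous by introduced pooled FPKM, with a p-value and false discovery rate from a test not given there; these are quoted only as deposited. The type comparison used limma 3.58.1 with a trended prior, in R 4.3.3, on log2(FPKM + 1) for entries with a mean of at least 1 FPKM, adjusted by Benjamini-Hochberg at 0.05. The steps were tested on simulated data. With the spread seen between the libraries of a type, 0 of 100 genes changed by 2 on the log2 scale were recovered, and 0 of 100 changed by −4. With a much smaller spread 82 of 100 and 97 of 100 were recovered. Python 3.11.15, pandas 2.3.3 and numpy 2.4.6 served the rest. The members and lists were chosen with earlier results of these data known. Named genes were the members and, per list, the 2 most abundant, the 2 with the largest type difference and the 2 with the widest range; for MEF2A, 1 of the genes with the most similar pattern is not reported here. Names came from the file and from reference tables for Sscrofa11.1; PAX7 matched no row. An entry named SMAD2 in the file was counted as SMAD3, and MYH8, sharing the MYH1 entry, was left out.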

Additional observations from a re-analysis of the deposited data

How the results depend on the processing

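The number of genes passing between the types, 0 as reported, was 3 with a pseudocount of 0.1 and 0 to 29 when a library was left out, the 29 being without YY; 0 members passed in any alternative. Left-out libraries moved the difference of MYOD1 between −0.062 and 0.97, of MEF2A between −0.87 and 0.25 and of MEF2D between −0.23 and 0.14, with the sign turned without TP for all 3 (MEF2D 0.01) and also without YY for MEF2D. Under the pseudocount, filter, scaling, prior and summed-entry alternatives the 7 members kept their sign. Counts of genes at least 2-fold apart moved with a pseudocount of 5 to 1447 for DSP and TP (2703 as reported), 1886 for LL and YY (3433), 426 for DSP and LL (849) and 831 for TP and YY (1951), with a pseudocount of 0.1 to 1316 for DSP and LL, and with a filter of 5 FPKM to 1300 for TP and YY. The share of these higher in the first-named breed was 67.3%, 44.4%, 65.8% and 46.4% as reported, 49.5%, 45.1%, 53.7% and 61.6% at a common median ratio, and 34.1%, 76.9%, 17.7% and 85.1% at a common sum; it was 31.3% for LL and YY and 31.2% for TP and YY with a pseudocount of 5, and 30.3% for TP and YY with a filter of 5 FPKM. Members 2-fold apart also changed with a pseudocount of 5, which left out MYOD1 for DSP and TP and MEF2A for TP and YY, and with summed entries, which left out MEF2A for TP and YY. Why the scalings differ was not tested. With a filter of 5 FPKM, which leaves fewer genes, the list medians were −0.19 for partners and inhibitors and −0.72 for related ligands. Leaving out a library moved the list medians across 0 for satellite cell genes (−0.02 to 0.54), upstream regulators (−0.80 to 0.05), MEF2 regulators (−0.09 to 0.60), targets (−0.30 to 0.66), ligands (−0.48 to 0.58), receptors (−0.41 to 0.63) and Smads (−0.27 to 0.03), but not for partners and inhibitors (0.06 to 0.76) or myostatin-binding proteins (0.17 to 0.46). No paired analysis was possible because the labels give no replicate numbers or other pairing; DSP with LL and TP with YY were paired by their likeness, and this pairing was not used as a block. With no counts in the files used, depth limits on low genes such as MYF5 are unknown.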
